A study of Mus musculus with 4 samples.

Results

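The genes described here are 10 growth factors linked to liver repair: the vascular endothelial growth factors Vegfa and Vegfb, hepatocyte growth factor (Hgf), the epidermal growth factor (EGF) receptor ligands Hbegf and Areg, the platelet-derived growth factor chains Pdgfa, Pdgfb and Pdgfc, insulin-like growth factor 1 (Igf1) and progranulin (Grn). They were taken by gene symbol, and all 10 were found among the 29247 Ensembl gene IDs of the count table. RNA was sequenced in bulk from macrophages that had been isolated by flow sorting from the livers of C57BL6J mice aged 8 weeks. The APAP Cxcr4+ group comprised 3 libraries. Its Cxcr4+ macrophages were collected 72 h after 300 mg/kg acetaminophen (APAP), a drug toxic to hepatocytes in overdose, given in saline by the intraperitoneal route. The control group was 1 library of macrophages labelled as control, whose sorting gate and any vehicle the labels do not describe. The effect of APAP and that of the Cxcr4 gate therefore cannot be told apart. No label assigns the APAP libraries to separate mice, so that the p-values rest on variation among the sequenced libraries, part of which may be technical. With a single control library, that variation came from the APAP libraries alone, and the control was assumed to vary as they did.

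Macrophages of an injured liver are a source of secreted factors that act on the neighbouring cells. HGF acts on hepatocytes through the receptor tyrosine kinase MET, the EGF receptor ligands act on hepatocytes through EGFR, VEGFA acts on sinusoidal endothelium through KDR, and PDGF chains act on hepatic stellate cells through PDGFRA and PDGFRB. IGF1 in the circulation comes mainly from hepatocytes under growth hormone, and progranulin is a secreted glycoprotein that is also delivered to lysosomes.

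Total counts were 48282283, 52043418 and 56702837 reads in the APAP Cxcr4+ libraries and 49950909 reads in the control library. Cxcr4 itself stood at 84.5, 132 and 101 counts scaled to library size (CPM) in APAP Cxcr4+ macrophages and at 41.3 CPM in control macrophages. The general macrophage genes Adgre1 (1196, 1463 and 1567 CPM in APAP libraries, 2059 CPM in the control), Csf1r and Cd68 were abundant in every library. Of the 6 genes of that list, Adgre1, Cd68 and Fcgr1 were lower in APAP Cxcr4+ macrophages, Mertk was higher and 2 did not pass. Of the 5 Kupffer cell genes, Clec4f, Timd4, Vsig4 and Cd5l were lower in APAP Cxcr4+ macrophages, whereas Marco did not pass, at 1274, 1419 and 886 CPM in the APAP group, against 779 CPM in the control. The monocyte-derived macrophage genes Ccr2, Cx3cr1 and Ly6c2 were higher. Summed over each marker list, the Kupffer cell genes gave 11731 to 14533 CPM in the APAP group, against 28750 CPM in the control, while the monocyte-derived genes gave 557 to 711 CPM in the APAP group, against 24.5 CPM in the control. Markers of B cells summed to 246 to 365 CPM in the APAP group, against 53.3 CPM in the control, and those of NK cells to 20.2 to 28.2 CPM in the APAP group, against 6.12 CPM in the control. In bulk RNA, a smaller number of cells with a transcript and a lower amount of it per cell cannot be told apart.

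Vegfa and Hgf were higher in APAP Cxcr4+ macrophages than in control macrophages, and Hbegf was lower. Vegfa was 5.19-fold higher at a low level, Hgf 2.53-fold higher, and Hbegf 2.81-fold higher in the control than in the APAP Cxcr4+ group. Areg was at or near 0 reads in every library and was not tested. The other 6 genes (Igf1, Vegfb, Pdgfa, Pdgfb, Pdgfc and Grn) did not pass an adjusted p of 0.05. These calls came from edgeR's quasi-likelihood test with Benjamini-Hochberg adjustment over all 18715 genes tested, and 9 of the 10 growth factor genes passed its low-count filter.

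Across the whole table the same test called 44.3% of genes, of which the higher ones in APAP Cxcr4+ macrophages made up 25.4% and the lower ones 18.9% of all tested. The 3 calls among the 9 growth factor genes tested, 33.3%, did not exceed the share of all genes. Their median log2 fold change was -0.21, against 0.08 over all genes tested. All APAP libraries lay above the control for 4 of the 9 (Igf1, Vegfa, Vegfb and Hgf), a pattern seen in 45.7% of all genes tested. They all lay below it for another 4 (Pdgfa, Pdgfb, Hbegf and Grn), a pattern seen in 39.2% of all genes tested. Pdgfc was the 1 gene of the 9 with the control inside the APAP range. The number of calls changed with the APAP library left out. Without the first, 7 of the 9 genes passed, as did 9380 of all 18463 genes tested in that fit. Without the second it was 3 of the 9 and 5001 of all 18335. Without the third it was 5 of the 9 and 8283 of all 18319. When edgeR's glmTreat tested instead for a change beyond 2-fold, none of the 9 passed (7.37% of all genes tested did), with adjusted p of 0.0684 for Vegfa, 0.0791 for Hgf and 0.109 for Hbegf. The unadjusted glmTreat p was below 0.05 for 3 of the 9, but all genes were not counted at that threshold, so this number has no share to stand beside.

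**Figure D1:**
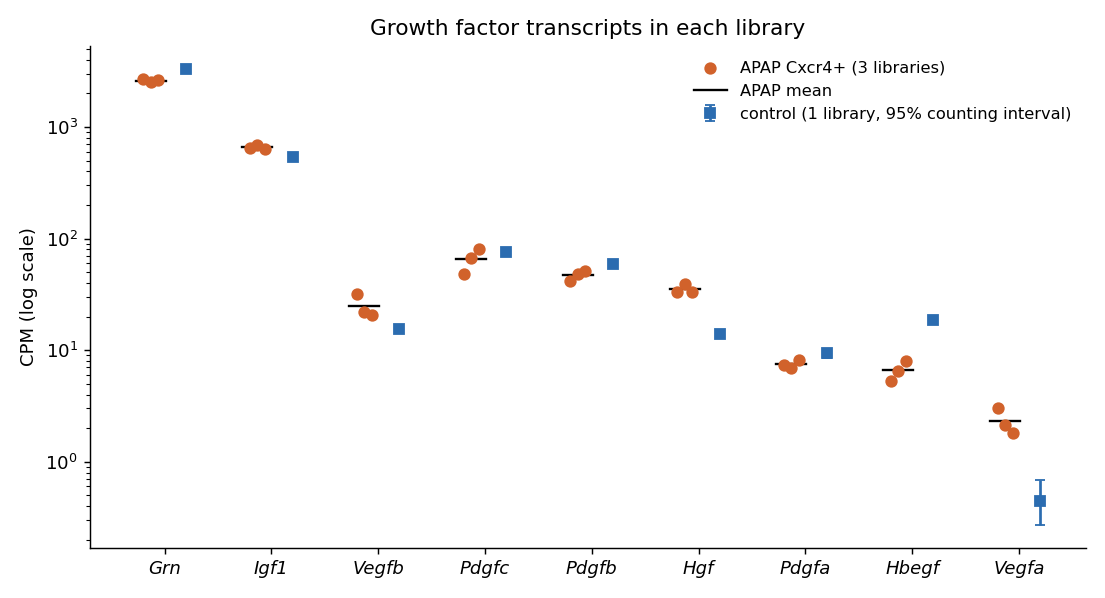
CPM of the 9 growth factor genes tested, on a log scale, ordered by level per kilobase of exon: orange points are the APAP Cxcr4+ libraries with a black line at their mean, and the blue square is the control library with its 95% Poisson interval, which covers counting error only. Vegfa and Hgf have all orange points well above the square, Hbegf has them below it, and Pdgfc has the square among them.

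Vegfa, the main angiogenic ligand of the family, was measured at 3.02, 2.14 and 1.81 CPM in the APAP Cxcr4+ libraries, against 0.445 CPM in the control library. These values rested on 152, 115 and 106 reads in the APAP libraries and on 20 reads in the control, whose 95% counting interval ran from 0.272 to 0.687 CPM. Every APAP library lay above that interval, and the first APAP library was the highest. The log2 fold change was 2.38 (SE 0.46, 95% interval 1.25 to 3.50, adjusted p = 0.00996 by edgeR). Leaving out each APAP library in turn gave 2.14 to 2.54, and Vegfa passed in each of the 10 alternatives that gave it an own fold change and test. Its coefficient of variation across the APAP libraries was 27.04%, where read counting alone would give 9.05%, and the median over all genes tested at a mean of 1 CPM or more was 8.32%.

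Vegfb, a ligand of FLT1 with little direct angiogenic activity, showed 31.7, 22.1 and 20.7 CPM in the APAP Cxcr4+ libraries and 15.4 CPM in the control library. All APAP libraries were above the control, with the first the highest, as for Vegfa. This difference of 0.69 on the log2 scale (SE 0.27, 95% interval 0.03 to 1.35) did not pass (adjusted p = 0.0812, edgeR). Without the first APAP library the log2 fold change was 0.48 and passed (adjusted p = 0.0184, edgeR), and without the third it was 0.82 and passed (adjusted p = 0.0144, edgeR). Without the second it was 0.77 and did not pass (adjusted p = 0.111, edgeR). In all, Vegfb passed in 4 of 11 alternatives.

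Among the VEGF receptors, the co-receptor Nrp2 had 89.2, 66.3 and 62.8 CPM in APAP Cxcr4+ macrophages and 7.72 CPM in control macrophages (log2 fold change 3.24, SE 0.26, adjusted p = 0.00113, edgeR). Its relative Nrp1, which also binds semaphorins and is named here after its values were seen, had 183, 159 and 182 CPM in the APAP group, against 85.3 CPM in the control, and also rose (adjusted p = 0.00244, edgeR). Flt1, the receptor shared by both ligands, did not pass at 13.9, 11.4 and 10.8 CPM in the APAP group, against 9.68 CPM in the control (adjusted p = 0.222, edgeR). Kdr, a receptor best known from endothelium, stood at 41.1, 40.1 and 46.7 CPM in the APAP group, against 32.2 CPM in the control, and was called higher (0.41 on the log2 scale, adjusted p = 0.0431, edgeR). That value of Kdr became -0.07 after correction for transcript length and GC content, and Kdr passed in 6 of 11 alternatives, which leaves out the fits lacking library 2 (adjusted p = 0.0838) and library 3 (adjusted p = 0.0597) of the APAP group. Summed over 6 markers of sinusoidal endothelium, the level was 859 to 1269 CPM in the APAP group, against 1889 CPM in the control, with Kdr the one marker that was higher.

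The transcription factors named here as regulators of Vegfa were higher or did not pass. Egr1, an immediate early factor, rose to 130, 112 and 115 CPM in APAP Cxcr4+ macrophages, against 30.4 CPM in control macrophages (log2 fold change 1.97, SE 0.13, adjusted p = 0.000999, edgeR). Sp1, which binds GC boxes, had 156, 163 and 157 CPM in the APAP group, against 96.0 CPM in the control (log2 fold change 0.73, adjusted p = 0.00273, edgeR), though the value was 0.04 after the length and GC correction. Hif1a, the hypoxia-regulated subunit, did not pass at 63.6, 61.2 and 73.0 CPM in the APAP group, against 57.1 CPM in the control (adjusted p = 0.219, edgeR). The related Epas1 was higher, and the prolyl hydroxylases Egln1 and Egln2, which mark both subunits for degradation, were lower. Hif1a, Epas1, Egln1 and Egln2 are named after their values were seen.

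The promoter sequences of the genes that rose are shown because the measured regulators have known binding motifs. In mouse RefSeq windows (build GRCm38.p6) of the 250 bases before the start site, 7 motifs were searched on both strands, and capitals mark the matches:
Vegfa promoter, chr17:46032378-46032627, minus strand: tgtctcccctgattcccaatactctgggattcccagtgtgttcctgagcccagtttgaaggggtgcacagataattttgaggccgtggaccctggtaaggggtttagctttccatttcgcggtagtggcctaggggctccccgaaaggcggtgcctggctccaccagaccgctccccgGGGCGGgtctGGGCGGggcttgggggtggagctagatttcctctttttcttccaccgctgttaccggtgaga
Hgf promoter, chr5:16553245-16553494, plus strand: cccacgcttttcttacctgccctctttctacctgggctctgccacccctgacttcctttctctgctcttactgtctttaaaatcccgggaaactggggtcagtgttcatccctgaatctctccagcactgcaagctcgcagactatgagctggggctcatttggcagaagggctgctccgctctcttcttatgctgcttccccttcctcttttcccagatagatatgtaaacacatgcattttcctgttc
The Vegfa window held the GC box GGGCGG at 2 places, beginning 72 and 62 bases before the start site. This motif was present in 32.7% of all 32851 windows of that length. The Hgf window held no match to any of the 7 motifs. The other motifs were the cyclic AMP response element TGACGTCA, found in 1.55% of windows, the hypoxia response core ACGTG, in 16.6%, the E-box CACGTG, which contains that core, in 6.02%, the AP-1 site TGANTCA, in 6.75%, the EGR site GCGNGGGCG, which can overlap a GC box, in 4.7%, and the C/EBP site TTGCNNAA, in 9.56%. A match or its absence describes letters in this window only.

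Hgf, the hepatocyte mitogen secreted as an inactive single chain, was measured at 33.1, 39.2 and 33.2 CPM in the APAP Cxcr4+ libraries, against 13.9 CPM in the control library. The reads behind these values numbered 1664, 2106 and 1947 in the APAP group, against 625 in the control. Within the APAP group the coefficient of variation of Hgf was 9.91%, and all its values lay above the control. On the log2 scale Hgf was higher by 1.34 (SE 0.15, 95% interval 0.97 to 1.71, adjusted p = 0.00215, edgeR), and Hgf passed in all 11 alternatives that gave it an own fold change and test, at 1.15 to 1.39. The annotated Gm43489 shares 6.74% of the exonic bases of Hgf on the same strand and had 10 to 16 reads in the APAP group, against 28 in the control.

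Stellate cells and fibroblasts are a known source of HGF in liver, and their 6 markers summed to 39.3 to 49.5 CPM in the APAP Cxcr4+ libraries and 38.5 CPM in the control library. Dcn and Lrat were lower in APAP Cxcr4+ macrophages, Col1a1 and Col3a1 were higher, and none of the 6 was at 0 in any library. Neutrophil markers summed to 51.7, 35.3 and 16.7 CPM in the APAP group, against 5.34 CPM in the control, where Ly6g, Mpo and Camp had no reads. In the APAP libraries Ly6g had only 7, 2 and 2 reads, Mpo 0, 4 and 0, and Camp 17, 4 and 19. Of this list Retnlg was called higher, whereas S100a8, S100a9 and Camp did not pass. The part of either cell type in the Hgf difference was not tested.

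Met, the HGF receptor, rose to 6.15, 5.38 and 5.08 CPM in APAP Cxcr4+ macrophages, against 1.09 CPM in control macrophages (log2 fold change 2.34, SE 0.26, adjusted p = 0.00202, edgeR). Genes of HGF activation went both ways. St14, a membrane protease that can cleave the HGF precursor, and its inhibitor Spint1 were higher, and Hgfac, the secreted HGF activator, was lower; they are named after their values were seen. F2, prothrombin, whose product thrombin activates HGFAC, had 4.54, 4.26 and 5.44 CPM in the APAP group, against 19.98 CPM in the control (log2 fold change -2.07, adjusted p = 0.00124, edgeR), and Hpn, a membrane protease that cleaves the HGF precursor, had 7.84, 7.91 and 9.13 CPM in the APAP group, against 23.1 CPM in the control (log2 fold change -1.48, adjusted p = 0.00168, edgeR). F2, Hpn and Hgfac are made chiefly by hepatocytes. All 6 hepatocyte markers were also lower, summing to 233 to 376 CPM in the APAP group, against 774 CPM in the control, and their part in the F2, Hpn and Hgfac values was not tested.

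**Figure D2:**
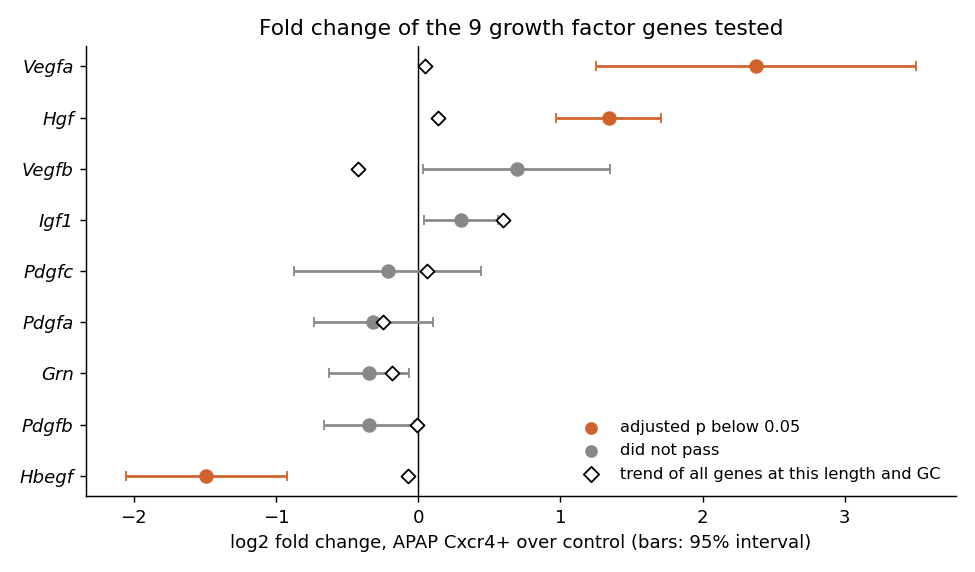
Log2 fold change of APAP Cxcr4+ over control for the 9 growth factor genes tested, with 95% intervals: orange circles passed an adjusted p of 0.05 and grey circles did not, and white diamonds give the trend of all genes at the same transcript length and GC content. Vegfa and Hgf lie right of 0 and Hbegf left of it with intervals clear of their diamonds, whereas the Igf1 circle at 0.30 lies left of its diamond at 0.60.

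Hbegf, a membrane-anchored EGF receptor ligand released by proteolytic shedding, was measured at 5.29, 6.44 and 8.00 CPM in the APAP Cxcr4+ libraries, against 18.5 CPM in the control library. The counts were 266, 346 and 469 reads in the APAP group, against 831 in the control. Every APAP library was below the control, and the third was the nearest to it. Its log2 fold change was -1.49 (SE 0.23, 95% interval -2.06 to -0.92, adjusted p = 0.00502, edgeR). Hbegf passed in all 11 alternatives that gave it an own fold change and test, at -1.64 to -1.36. Its coefficient of variation across the APAP libraries was 20.7%.

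Areg (amphiregulin), an EGF receptor ligand known from lymphocytes, basophils and injured epithelium, had 0, 0 and 2 reads in the APAP Cxcr4+ libraries and 0 reads in the control library. At these depths a count of 0 allows up to 0.0597 and 0.0558 CPM in the first and second APAP libraries and 0.0668 CPM in the control, for counting error only, so a difference below these levels was not detectable. Basophil and mast cell markers summed to 1.35 to 2.10 CPM in the APAP group, against 1.62 CPM in the control. Gata2 made up most of the APAP sums, at 1.25, 1.69 and 1.33 CPM, and all of the control sum. Mcpt8, Cpa3, Fcer1a and Ms4a2 had no reads in the control and at most 12 reads in any APAP library. T cell and ILC2 markers summed to 41.2 to 50.5 CPM in the APAP group, against 22.8 CPM in the control. The Areg window in RefSeq (GRCm38.p6) is shown because it carries the cyclic AMP response element although the gene had almost no reads, with the motifs in capitals:
Areg promoter, chr5:91139349-91139598, plus strand: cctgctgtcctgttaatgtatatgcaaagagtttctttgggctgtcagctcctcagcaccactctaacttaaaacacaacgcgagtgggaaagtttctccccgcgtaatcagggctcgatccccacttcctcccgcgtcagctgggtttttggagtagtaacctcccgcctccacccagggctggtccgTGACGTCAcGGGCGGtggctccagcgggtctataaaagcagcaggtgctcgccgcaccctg
The response element begins 61 bases and a GC box 52 bases before the start site. Creb1, a factor that binds the response element, was measured at 96.1, 102 and 96.0 CPM in the APAP group, against 63.4 CPM in the control, and is named after its values were seen. The log2 fold change of Creb1, 0.63, compares with a trend of 0.70 over all genes of like length and GC content.

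Egfr, the receptor of both ligands, fell to 1.51, 1.08 and 2.25 CPM in APAP Cxcr4+ macrophages, against 5.01 CPM in control macrophages (log2 fold change -1.63, SE 0.39, adjusted p = 0.0202, edgeR). Hepatocytes are a rich source of Egfr, and their summed markers were lower in the same libraries, as given above for F2; their part in the Egfr value was not tested. Adam17, the main sheddase of EGF receptor ligands, did not pass at 271, 275 and 275 CPM in the APAP group, against 236 CPM in the control (adjusted p = 0.101, edgeR). Its partner Rhbdf2 was slightly lower at 101, 92.7 and 96.0 CPM in the APAP group, against 121 CPM in the control (log2 fold change -0.32, adjusted p = 0.0345, edgeR). Adam17 and Rhbdf2 are named after their values were seen. Adam8, a metalloprotease of myeloid cells, rose to 107, 61.1 and 68.7 CPM in the APAP libraries, against 1.62 CPM in the control (log2 fold change 5.60, SE 0.48, adjusted p = 0.00122, edgeR). The neuregulins Nrg2 and Nrg4, ligands of other ERBB receptors, were higher at 1.92 and 2.45 on the log2 scale (adjusted p = 0.00460 and 0.0223, edgeR), both at 3.14 CPM or less, and Nrg4 did not pass with limma-voom (adjusted p = 0.0661). Egf itself did not pass at 0.697, 0.596 and 0.495 CPM in the APAP group, against 0.178 CPM in the control (adjusted p = 0.0523, edgeR).

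None of the PDGF chains passed. Pdgfb, the chain best known from platelets, macrophages and endothelium, was measured at 41.8, 47.99 and 50.8 CPM in the APAP Cxcr4+ libraries and 59.6 CPM in the control library. All APAP libraries lay below the control, and the first was the lowest. The difference was -0.35 on the log2 scale (SE 0.13, 95% interval -0.66 to -0.03, adjusted p = 0.0729, edgeR). Without the first APAP library it was -0.27 and passed (adjusted p = 0.0356, edgeR), and without the third it was -0.39 and passed (adjusted p = 0.0441, edgeR). Without the second it was -0.36 and did not pass (adjusted p = 0.156, edgeR). Those were the only passes of Pdgfb, 2 of 11 alternatives.

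Pdgfa, whose dimer signals through PDGFRA, had 7.42, 6.98 and 8.14 CPM in the APAP Cxcr4+ libraries and 9.35 CPM in the control library. These values also lay below the control, but the log2 fold change of -0.31 (SE 0.17, 95% interval -0.73 to 0.10) did not pass (adjusted p = 0.174, edgeR). The antisense gene 6330403L08Rik shares 26.07% of the exonic bases of Pdgfa and had 236 to 283 reads in the APAP group, against 298 in the control, so that without a stated strand setting the reads of the pair cannot be told apart.

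Pdgfc, a chain that needs proteolytic activation, was measured at 47.9, 67.4 and 80.8 CPM in the APAP Cxcr4+ libraries and 75.8 CPM in the control library. The third APAP library was above the control and the other two below it. The log2 fold change of -0.21 had the 95% interval -0.87 to 0.44 (SE 0.27, adjusted p = 0.538, edgeR), so that neither direction was resolved. It was -0.03 in the fit lacking library 1 of the APAP group and -0.38 in that lacking library 3, and passed in neither. Its relative Pdgfd, which was not among the 10, fell at a low level of 0.465 to 0.478 CPM in the APAP libraries, against 1.11 CPM in the control (log2 fold change -1.23, adjusted p = 0.0420, edgeR), and did not pass with any 1 of the APAP libraries left out (adjusted p = 0.0646 to 0.101). The receptors Pdgfra and Pdgfrb were at 2.87 CPM or less in every library: Pdgfra had 0.716, 0.707 and 0.410 CPM in the APAP group, against 0.445 CPM in the control, and Pdgfrb had 1.09, 2.36 and 2.49 CPM in the APAP group, against 2.87 CPM in the control. Neither receptor passed (adjusted p = 0.520 and 0.389, edgeR). The platelet markers summed to 20.1 to 26.4 CPM in the APAP group, against 39.3 CPM in the control, nearly all from Pf4, and their part in the PDGF values was not tested.

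Igf1, second among the 10 genes in level per kilobase of exon, was measured at 649, 692 and 639 CPM in the APAP Cxcr4+ libraries and 536 CPM in the control library. Every APAP library was above the control, and they differed little among themselves, with a coefficient of variation of 4.32%. The difference of 0.30 on the log2 scale (SE 0.11, 95% interval 0.04 to 0.56) did not pass (adjusted p = 0.0621, edgeR). It passed without a count filter at 0.33 (adjusted p = 0.0485, edgeR) and with the first APAP library left out at 0.31 (adjusted p = 0.0239, edgeR). DESeq2's Wald test also passed it at 0.31 (adjusted p = 0.0471). It did not pass in the fits lacking library 2 (adjusted p = 0.233, edgeR) or library 3 (adjusted p = 0.0884, edgeR) of the APAP group. The direction of Igf1 turned when the length and GC trend was removed. Igf1 has a long transcript, long genes were on the whole higher in APAP Cxcr4+ macrophages (Spearman's rho 0.25 between log2 fold change and length across 18644 genes, which are not independent), and the corrected value was -0.34 (adjusted p = 0.0478, edgeR). Between pairs of APAP libraries the same rho was -0.05 to -0.02. Hepatocyte markers, as given for F2, were lower in the APAP group, and their part in the Igf1 value was not tested.

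The receptors of IGF1 and insulin were higher. Igf1r had 20.04, 19.4 and 14.1 CPM in APAP Cxcr4+ macrophages and 4.58 CPM in control macrophages (log2 fold change 1.96, SE 0.26, adjusted p = 0.00330, edgeR), and Insr had 81.6, 89.7 and 85.5 CPM in the APAP group, against 35.9 CPM in the control (log2 fold change 1.25, SE 0.10, adjusted p = 0.00119, edgeR). Both are long transcripts, and both still passed after the length and GC correction, at 1.05 for Igf1r and 0.45 for Insr. Of the 8 IGF binding protein genes, Igfbp5 rose to 4.28, 4.21 and 5.27 CPM in the APAP libraries, against 0.868 CPM in the control (log2 fold change 2.40, adjusted p = 0.00254, edgeR). Igfbp3 fell to 1.41, 1.38 and 1.14 CPM in the APAP libraries, against 2.67 CPM in the control (log2 fold change -1.03, adjusted p = 0.0287, edgeR), a call that was lost in the fits lacking library 2 (adjusted p = 0.0758) and library 3 (adjusted p = 0.0528) of the APAP group. Igfbp1, a hepatocyte product, had 0.0398, 0.298 and 0.102 CPM in the APAP group, against 1.16 CPM in the control (log2 fold change -2.95, adjusted p = 0.0317, edgeR). That of Igfbp1 was -3.95 in the fit lacking library 2 of the APAP group, and did not pass once the length and GC trend was removed (-2.66, adjusted p = 0.0523). Igfbp4 did not pass at 94.9, 103 and 116 CPM in the APAP group, against 80.2 CPM in the control (adjusted p = 0.0593, edgeR). The STAT5 factors carry the growth hormone signal to Igf1 in liver. Ghr, the growth hormone receptor, is named after its values were seen. It did not pass at 2.05, 1.40 and 3.24 CPM in the APAP group, against 2.87 CPM in the control (adjusted p = 0.549, edgeR). Stat5a was higher at 30.7, 28.5 and 26.4 CPM in the APAP group, against 12.8 CPM in the control (log2 fold change 1.16, adjusted p = 0.00247, edgeR). Stat5b, named after its values were seen, had 124, 127 and 113 CPM in the APAP group, against 92.7 CPM in the control. It was also called higher, at a log2 fold change of 0.39, beside a trend of 0.33 over all genes of like length and GC content.

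Grn, first among the 10 genes in level per kilobase of exon, was measured at 2680, 2526 and 2611 CPM in the APAP Cxcr4+ libraries and 3309 CPM in the control library. All APAP libraries lay below the control, with a coefficient of variation of 2.96%. On the log2 scale the difference of -0.34 (SE 0.11, 95% interval -0.63 to -0.06) did not pass (adjusted p = 0.0546, edgeR). It passed in 5 of 11 alternatives, among them DESeq2's Wald test at -0.33 (adjusted p = 0.0202) and limma-voom at -0.35 (adjusted p = 0.0358). It did not pass in the fits lacking library 2 (adjusted p = 0.231) or library 3 (adjusted p = 0.150) of the APAP group, and after the length and GC correction it was -0.21 (adjusted p = 0.204). Sort1, the receptor that takes progranulin to lysosomes, showed the largest rise among the receptors listed: 268, 206 and 168 CPM in APAP Cxcr4+ macrophages, against 6.14 CPM in control macrophages (log2 fold change 5.12, SE 0.35, adjusted p = 0.00100, edgeR). A further route of progranulin to lysosomes, through prosaposin, is named after its values were seen. Psap, which encodes prosaposin, had 14558, 11198 and 10456 CPM in the APAP group, against 6256 CPM in the control (adjusted p = 0.0223, edgeR), and its receptor Lrp1 had 6760, 6897 and 6111 CPM in the APAP group, against 2773 CPM in the control (adjusted p = 0.00257, edgeR). Both passed as higher, but Lrp1 has a long transcript, and its log2 fold change of 1.25 compares with a trend of 1.0085 over all genes of like length and GC content.

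**Figure D3:**
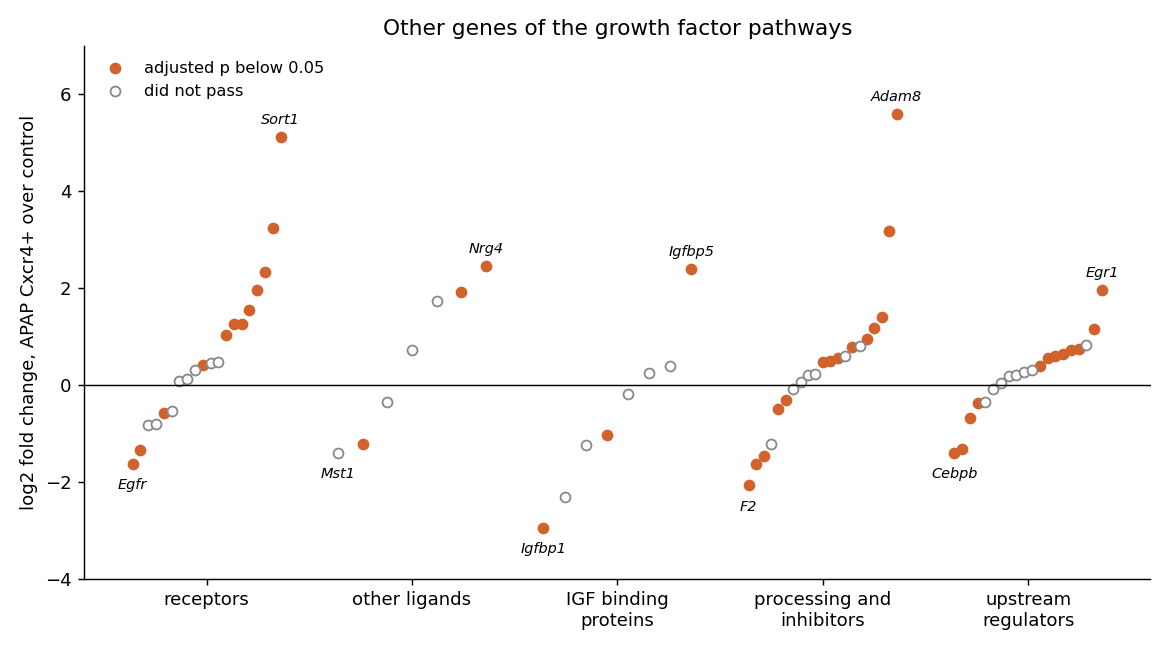
Log2 fold change of APAP Cxcr4+ over control for tested genes of the growth factor pathways outside the 10 described, 1 point per gene, orange where the adjusted p was below 0.05 and open where it was not, with the lowest and highest gene of each list named. Sort1 at 5.12 and Adam8 at 5.60 stand highest and Igfbp1 at -2.95 lowest, and Nrg1, Adam12 and Plat, with no control reads, are not drawn.

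Counts in the lists of pathway genes stand against 44.3% of all genes tested that were called, 25.4% higher and 18.9% lower. The receptor list had 9 genes higher, 3 lower and 8 that did not pass among the 20 tested, with a median log2 fold change of 0.43. Those that rose were Igf1r, Igf2r, Insr, Kdr, Nrp1, Nrp2, Met, Sort1 and Lrp1, and those that fell were Egfr, Pdgfrl and Tnfrsf1a. Of the 8 other ligands tested, Nrg2 and Nrg4 rose, Pdgfd fell and 5 did not pass, with a median of 1.22, or 0.90 with Nrg1, which had no control reads, at its lower bound. Among the IGF binding proteins, 1 of 8 rose, 2 fell and 5 did not pass (median -0.61). Without the first APAP library 6 of the 8 passed, where 9380 of all 18463 genes tested in that fit did. Among 23 processing and inhibitor genes, 10 rose, 5 fell and 8 did not pass (median 0.49). Without the second APAP library 7 of the 23 passed, where 5001 of all 18335 genes tested in that fit did. Among 20 upstream regulators, 8 rose, 4 fell and 8 did not pass (median 0.29). Of that last list, Cebpb, a regulator of acute-phase and macrophage genes, fell to 230, 253 and 233 CPM in APAP Cxcr4+ macrophages, against 633 CPM in control macrophages (log2 fold change -1.41, SE 0.10, adjusted p = 0.00100, edgeR). The proprotein convertase Furin, which cleaves many growth factor precursors, had 274, 274 and 242 CPM in the APAP group, against 153 CPM in the control (log2 fold change 0.78, adjusted p = 0.00461, edgeR), a call lost once the length and GC trend was removed (0.33, adjusted p = 0.0689). In all, 45 of 79 genes in these lists passed. By glmTreat against 2-fold 11 of the 79 passed, where 1379 of all 18715 genes (7.37%) did.

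Levels were compared between genes after division by exonic length, as CPM per kilobase. Grn led at 750 ± 22.2 in the APAP Cxcr4+ libraries (SD, n = 3) and 952 in the control, and was 11.3 times the level of Igf1 in the APAP libraries. Igf1 followed at 66.6 ± 2.88 in the APAP group, against 54.1 in the control. Vegfb at 15.5 ± 3.75, Pdgfc at 12.8 ± 3.25 and Pdgfb at 11.3 ± 1.11 came next in the APAP libraries, and neighbours among them had overlapping ranges. In the control these genes stood at 9.57 for Vegfb, 14.9 for Pdgfc and 14.3 for Pdgfb.

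Vegfb, Hgf and Hbegf held other places in the order in each APAP library than in the control. Vegfb ranked 3rd, 3rd and 4th in the APAP libraries and 5th in the control. Hgf, at 4.90 ± 0.49 CPM per kilobase in the APAP Cxcr4+ libraries and 1.94 in the control, ranked 6th in each APAP library and 8th in the control. Hbegf, at 1.36 ± 0.28 in the APAP group, against 3.83 in the control, ranked 8th in each APAP library and 6th in the control. Pdgfa was between them at 2.41 ± 0.19 in the APAP group, against 2.996 in the control. Vegfa, at 0.543 ± 0.147 in the APAP group, against 0.104 in the control, and then Areg came last in all libraries. Summed over the 10 genes, CPM not divided by length came to 3499, 3411 and 3453 in the APAP group, against 4037 in the control, most of it Grn.

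The genes differed in how much they varied among the APAP Cxcr4+ libraries. Vegfa and Vegfb were highest in the first library, at 130% and 128% of their APAP means. Pdgfc and Hbegf were lowest there, at 73.3% and 80.5%, and highest in the third library, at 124% and 122%. Igf1 and Grn stayed between 96.8% and 105% of their means. Over the same libraries the Kupffer cell genes Clec4f, Timd4 and Vsig4 were lowest in the first, at 72.4%, 83.1% and 74.8% of their means, but Marco of the same list was lowest in the third. The monocyte gene Ly6c2 was highest in the first library, at 143%, as was the sum of neutrophil markers given beside Hgf. Ccr2 and Cx3cr1 were highest in the second library. With 3 libraries no relation was tested, and the part of these markers in the growth factor values was not tested.

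**Figure D4:**
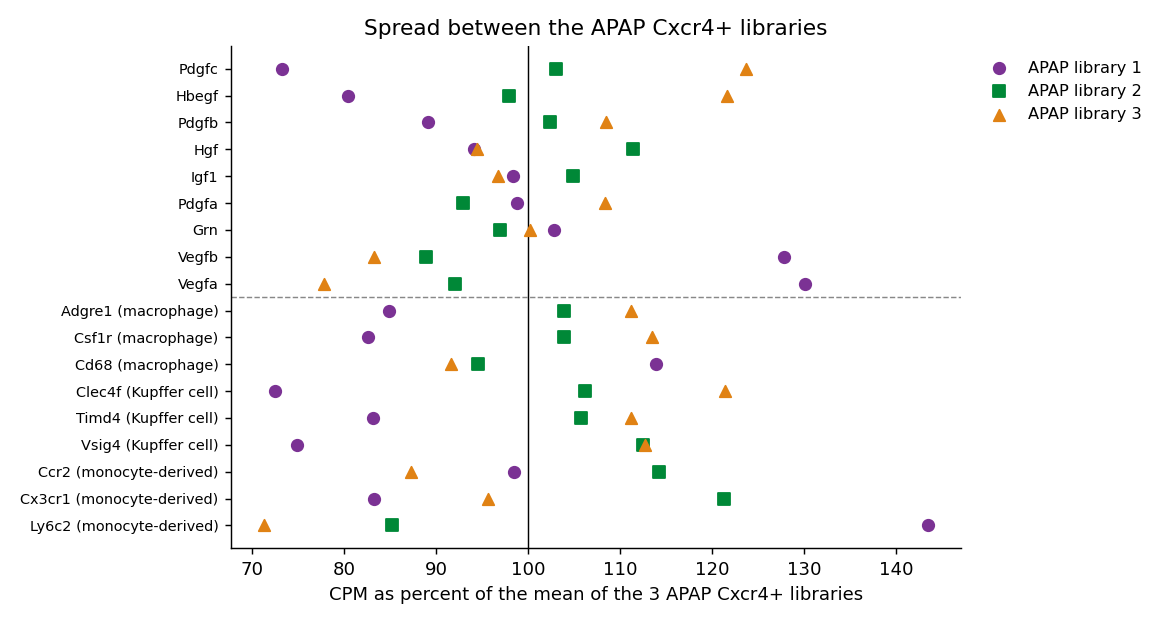
CPM in each APAP Cxcr4+ library as a percent of the mean of the 3 APAP libraries, for the growth factor genes above the dashed line and for marker genes of macrophages, Kupffer cells and monocyte-derived cells below it. The first library is low for Pdgfc, Hbegf and the 3 Kupffer cell genes drawn (Clec4f, Timd4 and Vsig4) and high for Vegfa, Vegfb and Ly6c2.

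**Figure D5:**
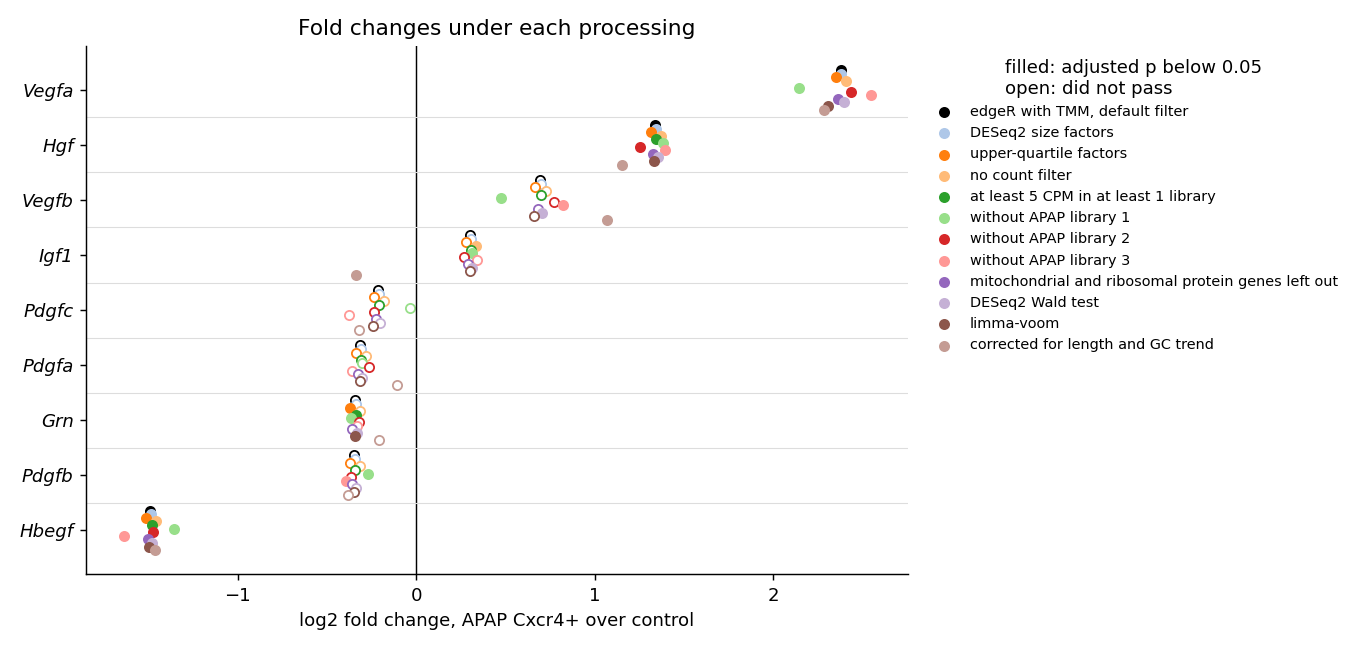
Log2 fold change of each growth factor gene under the main processing and each alternative except glmTreat, filled where the adjusted p was below 0.05 and open where it was not. Vegfa, Hgf and Hbegf are filled throughout, Pdgfa and Pdgfc are open throughout, and Igf1 lies left of 0 in 1 setting, the correction for length and GC content, at -0.34.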

How the data were processed

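Deposited values were read counts per gene, made by the authors with HISAT2 and Subread on mouse genome mm39, per the submitters' processing notes; the strand setting is not given in the sources used here. The count columns name the group and carry no replicate number, so the APAP libraries are named in table order. Per the labels' protocols, RNA came from flow-sorted cells in Trizol, and libraries from the Tecan universal plus mRNA-seq kit.

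Ensembl IDs were paired with symbols and exonic lengths from GENCODE M21 (GRCm38), a different build used for names and lengths only, and 98.9% of IDs matched. Counts from 3 APAP and 1 control libraries were filtered with filterByExpr (minimum count 10), scaled by TMM (factors 1.041, 1.033 and 1.034 for APAP, 0.900 for control) and tested with edgeR 4.0.16 in R 4.3.3 (glmQLFTest, 2 residual and 3.795 prior degrees of freedom), with p adjusted over all genes. The SE is the log2 fold change divided by the root of F. CPM uses the TMM-scaled totals. The procedure was tested on simulated data. No pair of libraries matched within counting noise: their chi-square over genes, divided by its degrees of freedom, ran from 18.2 to 62.8 within the APAP group. Alternatives used DESeq2 1.42.0 and limma 3.58.1 (voom).

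The members and gene lists were chosen with earlier results of these data known. Of each pathway list, the 4 genes with the smallest p-values and the main receptor of each growth factor are named, and of each marker list the first 3; other names are marked as chosen after their values were seen, or stand for list members that passed or that bear on a marker sum. The length and GC correction (loess over all genes) was added after seeing the data. Promoter windows come from RefSeq (GRCm38.p6), the most upstream window of each gene; Pdgfb and Hbegf are named only.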

Additional observations from a re-analysis of the deposited data

How the results depend on the processing

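No paired analysis was possible because the count columns carry no replicate numbers and the control group is 1 library. Of 98 values for growth factor genes under the alternatives other than glmTreat, 83 kept their direction and side of the threshold, 14 newly passed, 1 reversed and none stopped passing. Leaving out each APAP library gave 5001 to 9380 genes called (2979 to 5195 higher, 2022 to 4185 lower, lowest without the second library), 3 to 7 growth factor genes called (2 to 4 higher, 1 to 3 lower) and log2 fold changes of 0.27 to 0.34 for Igf1, 0.48 to 0.82 for Vegfb, -0.39 to -0.27 for Pdgfb, -0.38 to -0.03 for Pdgfc and -0.37 to -0.32 for Grn. Of the growth factor genes, 7 passed without the first library, where 9380 of all 18463 genes tested did. Without the second 3 passed, where 5001 of all 18335 did, and without the third 5 passed, where 8283 of all 18319 did.

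Testing beyond 2-fold with glmTreat left 1379 genes (1099 higher, 280 lower) and 11 in the pathway lists. It left 0 growth factor genes (0 higher, 0 lower), which ended the calls of Vegfa, Hgf and Hbegf. These 3 had an unadjusted glmTreat p below 0.05, a threshold at which all genes were not counted. DESeq2's Wald test called 6 growth factor genes (4 higher, 2 lower), with Igf1 at 0.31, Vegfb at 0.70 and Grn at -0.33. In all it called 7712 of the 27284 genes given a fold change (4589 higher, 3123 lower). A minimum of 5 CPM gave 3097 genes higher and 2956 lower among 10959 tested. Of the growth factor genes 1 was higher, since Vegfa was no longer tested, and 2 were lower, with Grn at -0.34. Upper-quartile factors and limma-voom each called 2 growth factor genes lower, with Grn at -0.37 and -0.35. They called 3717 and 3644 of all 18715 genes lower. The fit with no count filter gave Igf1 at 0.33. The length and GC correction called 5 growth factor genes (2 lower), with Vegfb at 1.07, and 6508 of all 18715 genes (3236 lower). It reversed Igf1 (-0.34), Flt1 (-0.26), Kdr (-0.073) and Pdgfra (-0.13). By its construction it removes the trend with length. Scaling by DESeq2 or upper-quartile factors moved the median log2 fold change of all genes from 0.08 to 0.09 and 0.06. Depth limits Areg and, at 20 control reads, Vegfa.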
